A study of Populus davidiana with 6 samples.

Results

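Besides annotated genes, the deposited leaf transcriptome of Populus davidiana lists loci that were assembled from the reads alone. The loci described here are those whose transcripts are all marked as new, whose identifier is not a reference identifier (these start with POPTR_), and which span at least 300 bases from the lowest start to the highest end of their transcripts. Of 40537 loci in all, 1764 were new in this sense and 800 of these spanned 300 bases or more. Expression averaged 1 FPKM or more across the 6 samples in 604 of the 800 (75.5%), and these 604 are called the new loci below. FPKM counts sequenced fragments relative to transcript length and library size, and the level of a locus is the sum over its transcripts. The other 196 loci fell under the minimum, 46 of them listed at 0 in every sample.

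Leaf poly(A) RNA was sequenced from the cultivar Palgong1, an aspen that the labels call drought sensitive, with 3 control and 3 air-dried samples. All plants were labelled seedlings and had been regrown from stem internodes on a culture medium with naphthalene acetic acid, an auxin. Plants for the treatment were about 6 weeks old, and were lifted from the medium, washed, and exposed to the air for some 10 min to impose drought. How control plants were handled was not stated in the labels. Nor do the labels say whether each sample was a separate plant, so the p-values reflect the spread between these samples alone, and that spread may be technical. The files give no gene names, so the leaf label could not be checked against marker genes. Only FPKM was used, without read totals, so depth is unknown and no counting interval is printed.

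Transcript assembly joins overlapping read alignments into models, and a model that shares no exon with an annotated gene is kept as a new locus. In plants such loci are known to include unannotated protein-coding genes, long noncoding RNAs, transcribed transposable elements and detached pieces of longer transcripts. The library kit named in the labels does not mark strand in its standard form, so the assembler takes the strand from the splice sites of a spliced model and leaves an unspliced model without one. None of the new loci has a gene name or a stated function in the files, and none is given here.

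Most new loci were short and simple. The median span was 613.5 bases (quartiles 405.75 and 1095.75, range 300 to 107380), against 3391 bases for the 19175 tested reference loci of at least 300 bases. A single transcript made up 495 of the 604, another 66 had 2 transcripts, and 43 had 3 or more, up to 11. No strand was given for 257 new loci, all with a single transcript, while 180 lay on the plus and 167 on the minus strand. Those without a strand were shorter, with a median span of 429 bases against 968 bases for those with one. Just inside the span limit, 22 loci were under 10 bases longer than 300 bases, with a median level of 5.06 FPKM. Just outside it, 18 loci were up to 10 bases shorter, with a median level of 4.11 FPKM. Just inside the level limit, 19 loci had means up to 1.09 FPKM, and just outside it 14 loci had means from 0.90 to 0.993 FPKM.

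Control replicate 1 stood apart before any comparison. It listed 112 of the 604 new loci at 0, against 14 to 25 in each of the other 5 samples, and at the same time gave the highest of the 6 values at 244 loci. A mean of at least 1 FPKM rested on this library in 24 new loci, whose mean over the other 5 samples was below 1. The libraries were also divided by rank, across both groups. At the 11 single-transcript loci of 150 bases, the smallest value above 1 FPKM was 4776, 46.2 and 8.16 FPKM in control replicates 1, 2 and 3 and 79.4, 18.3 and 17.6 FPKM in the air-dried replicates. By rank alone, control replicates 1 and 2 and air-dried replicate 1 were thus taken as the 3 highest libraries. Their values all lay above those of the other 3 libraries at 120 of the 604 new loci (19.9%). The share was 9.51% of reference loci of 300 bases or more, which are longer, and loci of like span were not compared. A fit with a term for this division is given with the calls below.

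The new loci were weakly to moderately expressed. Taking for each locus its median over the 6 samples, the middle value was 4.33 FPKM (quartiles 1.88 and 10.8), against 12.2 FPKM for reference loci of 300 bases or more. Between loci of like span the order was not always the same. At spans under 500 bases the middle value was 4.68 FPKM at new loci and 3.71 FPKM at reference loci. From 500 to under 1000 bases it was 3.46 against 5.56 FPKM, from 1000 to under 2000 bases 3.38 against 9.20 FPKM, and at 2000 bases or more 6.84 against 13.2 FPKM. FPKM is scaled to transcript length, but at the 150-base loci above the values also differed widely between libraries. The part of such differences in the levels by span was not tested. The median over the new loci was 5.05, 5.27 and 4.03 FPKM in control replicates 1, 2 and 3, and 5.48, 3.60 and 4.19 FPKM in air-dried replicates 1 to 3, so the groups overlapped. All 6 samples were at 1 FPKM or more in 348 of the 604, and 5 samples in another 119. Only 1 sample reached 1 FPKM in 14 loci, and only 2 samples in 21. The group mean reached 1 FPKM in both groups at 529 loci, in control leaves alone at 51 and in air-dried leaves alone at 24.

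**Figure D1:**
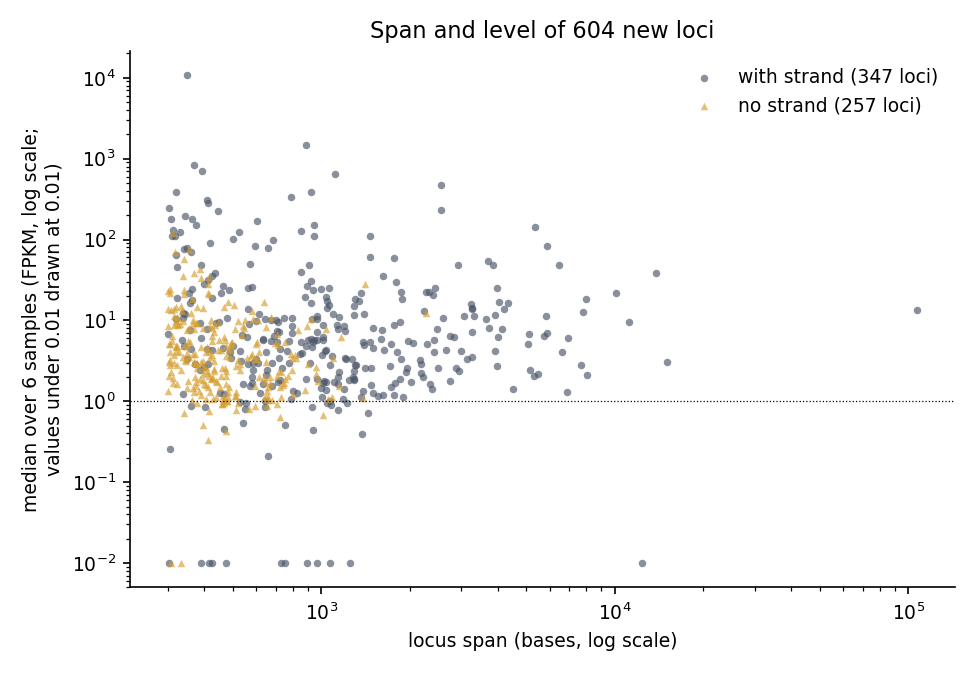
Span of each of the 604 new loci (x axis, bases, log scale) against its median level over the 6 samples (y axis, FPKM, log scale), with circles for loci with a strand and triangles for loci without. Most points lie between 1 and 100 FPKM, the loci without a strand gather at short spans, and levels above 100 FPKM occur almost only in loci with a strand.

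High levels belonged almost wholly to loci with a strand. A median of at least 100 FPKM was found in 31 new loci, 30 of them with a strand. The highest median, 10785 FPKM, was at XLOC_016976, 348 bases on the minus strand of chromosome 17 (783549 to 783896). Its values were 125318, 20350 and 4863 FPKM in control replicates 1, 2 and 3 and 14543, 2315 and 7026 FPKM in air-dried replicates 1 to 3. The groups overlapped, and control replicate 1 was far above every other library. XLOC_025252, 889 bases on the plus strand of chromosome 4 (4232641 to 4233529), had 33563, 4650 and 1264 FPKM in control and 814, 1646 and 822 FPKM in air-dried replicates 1 to 3. Here too the lowest control value lay below the highest air-dried value, and the limma log2 fold change of -2.49 (SE 1.22) did not pass (adjusted p = 0.310).

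The next 6 by median level also varied widely between libraries. XLOC_003139 (369 bases, chromosome 1, 17002564 to 17002932) had 4011, 1406 and 189 FPKM in control and 1724, 225 and 258 FPKM in air-dried replicates 1 to 3. XLOC_028299 (393 bases, chromosome 5, 21995633 to 21996025) had 4708, 1065 and 182 FPKM and 2000, 313 and 325 FPKM in the same order. In both loci the 3 highest values came from control replicates 1 and 2 and air-dried replicate 1, and each group held values about as low as the other. XLOC_033500 (924 bases, chromosome 7, 1354563 to 1355486) ran from 32.0 FPKM in control replicate 3 to 1723 FPKM in control replicate 1. XLOC_004430 (321 bases, chromosome 1, 47966242 to 47966562) ran from 85.6 FPKM in control replicate 3 to 1430 FPKM in air-dried replicate 1. XLOC_003042 (2565 bases, chromosome 1, 14614508 to 14617072) reached 24848 FPKM in control replicate 1 and 5509 FPKM in air-dried replicate 1, with 302 to 547 FPKM elsewhere. XLOC_008483 (1110 bases, chromosome 11, 17035309 to 17036418) was the steadiest of the 8, at 1599, 1006 and 479 FPKM in control and 685, 435 and 608 FPKM in air-dried replicates 1 to 3. The 3 libraries that were highest at the 150-base loci stood above the other 3 in 6 of these 8 loci. The same held in 53 of the 95 new loci with a median of at least 20 FPKM (55.8%). Among the 6540 reference loci at that level the share was 15.2%. These 95 new loci were shorter, with a median span of 463 bases against 3374 bases for those reference loci. The part of span in this difference was not tested.

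**Figure D2:**
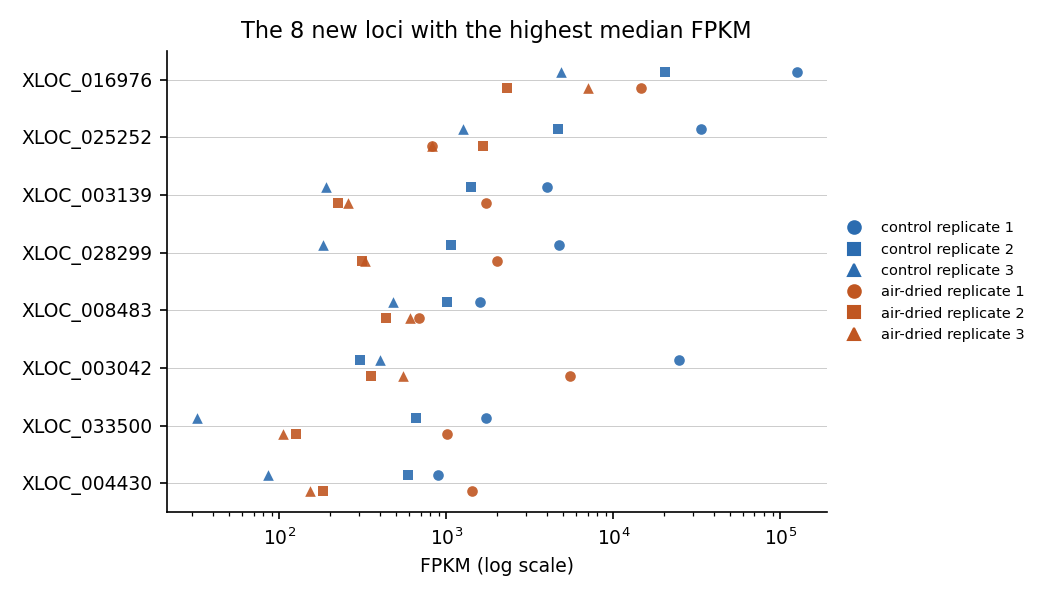
FPKM (x axis, log scale) in each sample for the 8 new loci with the highest median level, control in blue and air-dried in orange, with the marker shape giving the replicate. In XLOC_016976 the values run from 2315 to 125318 FPKM and the groups overlap, as they do in the other 7 loci.

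Sums over the new loci rested on a single locus in control replicates 1 and 3. The new loci held 9.45% of all FPKM at loci of 300 bases or more in control replicate 1. In the remaining libraries that share was 1.23% to 4.25%. Of the sum in control replicate 1, 89.1% came from XLOC_017961 on chromosome 18 (7843159 to 7844414), which was listed at 2030000 FPKM there and at 0 in the other 5 samples. In control replicate 3, 61.2% came from XLOC_008410 on chromosome 11 (16002561 to 16003629), at 24496 FPKM there and at 0 elsewhere. These 2 loci, named after their values were seen, are among 6 new loci with a value above 0 in a single sample. A fold change cannot be read from such loci.

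Whether the new loci were intergenic depended on how a gene's extent was drawn. Of the 579 on a sequence that also holds a reference locus, 2 overlapped the span of a single annotated transcript, a measure added after the data were seen. By any locus that holds an annotated transcript, 94 new loci overlapped one and the median distance was 815 bases. Many reference loci are wider than their annotated transcripts, since newly assembled transcripts were added to them. Some, known by their identifier alone, hold no annotated transcript. Of the 579 new loci, 70 overlapped the span of a reference locus. For 61 of the 70 the new locus lay wholly inside it. The median distance to the nearest reference locus was 1210 bases (quartiles 201 and 3757.5), and to the nearest single annotated transcript 1464 bases. Reference loci of 300 bases or more lay a median of 1746 bases from the nearest other reference locus (quartiles 573 and 4208). Without overlap, 202 new loci lay under 1000 bases from a reference locus, 198 at 1000 bases or more but under 5000, and 109 at 5000 bases or more. The remaining 25 lay on sequences without a reference locus.

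The 3 new loci farthest from a reference locus had low to moderate levels, and none passed the test between groups. XLOC_039580 (scaffold_34, 6998 to 12128) lay 70098 bases away, with control values of 2.26, 3.36 and 2.30 FPKM and air-dried values of 3.26, 2.59 and 2.06 FPKM. The groups overlapped fully (log2 fold change 0.00047 with SE 0.19, limma adjusted p = 0.999). XLOC_039300 (scaffold_26, 377456 to 384087) lay 42124 bases away, with 0, 2.69 and 2.47 FPKM in control and 10.7, 5.43 and 5.52 FPKM in air-dried replicates 1 to 3. All its air-dried values were above all control values, but the change did not pass (log2 fold change 1.75 with SE 0.58, limma adjusted p = 0.162). XLOC_010039 (chromosome 12, 4331799 to 4332224) lay 23716 bases away and ran from 3.69 to 12.4 FPKM with overlapping groups.

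Loci without a strand were placed unevenly around their neighbours. Taking the nearest single annotated transcript, 105 new loci without a strand lay upstream of its start within 2000 bases and 0 lay downstream of its end within that distance. The nearest downstream locus without a strand was 2001 bases away, and 34 lay downstream at over 2000 and up to 4000 bases, against 35 upstream. The same edge held over new loci without a strand of 300 bases or more at any level, with 150 upstream and 0 downstream within 2000 bases. New loci with a strand showed no such gap, with 105 upstream and 121 downstream within 2000 bases and the nearest downstream locus 8 bases away. How the assembly step treated such fragments was not stated in the labels, and the distances above carry this edge.

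**Figure D3:**
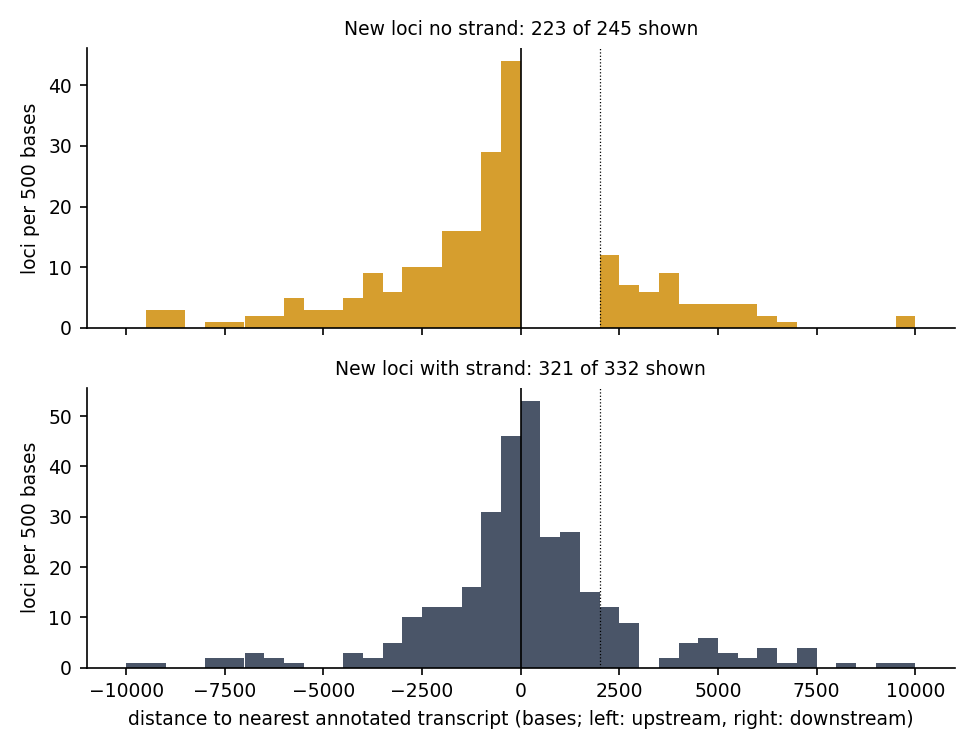
Distance from each new locus to the nearest annotated transcript (x axis, bases, upstream to the left and downstream to the right) for loci without a strand (top) and with a strand (bottom). Bars count loci in bins of 500 bases. Loci without a strand are missing from 0 to 2000 bases downstream, where the dotted line stands, and loci with a strand are not.

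Among new loci with a strand under 1000 bases from a reference locus, the strand of the neighbour was counted on each side. Of 64 such loci upstream of the reference locus, 43 lay on its strand and 21 on the opposite strand. Of 67 downstream, 33 lay on the same and 34 on the opposite strand. From 1000 to under 5000 bases, the same-strand and opposite-strand counts were 33 and 16 upstream and 39 and 27 downstream. At 5000 bases or more they were 11 and 11 upstream and 14 and 11 downstream. The strand of a spliced model comes from its splice sites, and reads of overlapping models on opposite strands cannot be told apart in these libraries.

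Along the chromosomes the new loci were spread over all 19, with 536 of the 604 on a chromosome and 68 on other genome sequences. Relative to tested reference loci of 300 bases or more, they ranged from 1.76 per 100 on chromosome 7 (12 new loci) to 4.45 per 100 on chromosome 11 (28 new loci). Some lay close together: 95 had another new locus within 1000 bases, and 27 overlapped another new locus. Members of such pairs share a place in the genome and are not independent.

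Few new loci were called as changed between control and air-dried leaves. The comparison asked which loci differed after plants were lifted, washed and dried in air, by limma on log2(FPKM + 1) over the 22835 loci that averaged 1 FPKM or more, with Benjamini-Hochberg adjustment over all of them and a threshold of 0.05. In bulk leaf RNA, a change in the number of cells and a change in RNA per cell cannot be told apart. Of the 604 new loci, 6 rose, or 0.993%, against a background of 4.16% over all loci tested, and 11 fell, or 1.82%, against 2.61%. In total 17 were called (2.81%, against 6.78% over all loci). An unadjusted p under 0.05 was reached by 72 new loci (11.9%), against 22.0% of all loci. The 3 air-dried values lay wholly above the 3 control values at 35 new loci (5.79%, against 17.0%) and wholly below at 61 (10.1%, against 13.3%), in all 96 (15.9%, against 30.4%). The median log2 fold change was -0.13 over the new loci and 0.0066 over all loci tested. Without control replicate 1 these medians were -0.089 and 0.018. Some loci passed the minimum of 1 FPKM through the group in which they are high, so these counts describe the new loci and support no contrast with other loci.

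The spread between replicates was wider at new loci than at most reference loci. The median SD within groups on the log2(FPKM + 1) scale was 0.62 at new loci and 0.17 at reference loci of 300 bases or more. By span it was 0.83 at new loci under 500 bases, 0.58 from 500 to under 1000, 0.48 from 1000 to under 2000 and 0.34 at 2000 bases or more. Reference loci of the same spans had median SDs of 0.85, 0.37, 0.22 and 0.15. The shortest reference loci were thus as variable as the shortest new loci. Within these span classes, 1.23%, 3.31%, 4.85% and 3.95% of new loci were called, and 2.97%, 7.60%, 11.8% and 6.31% of reference loci. The part of this spread in the share called was not tested.

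**Figure D4:**
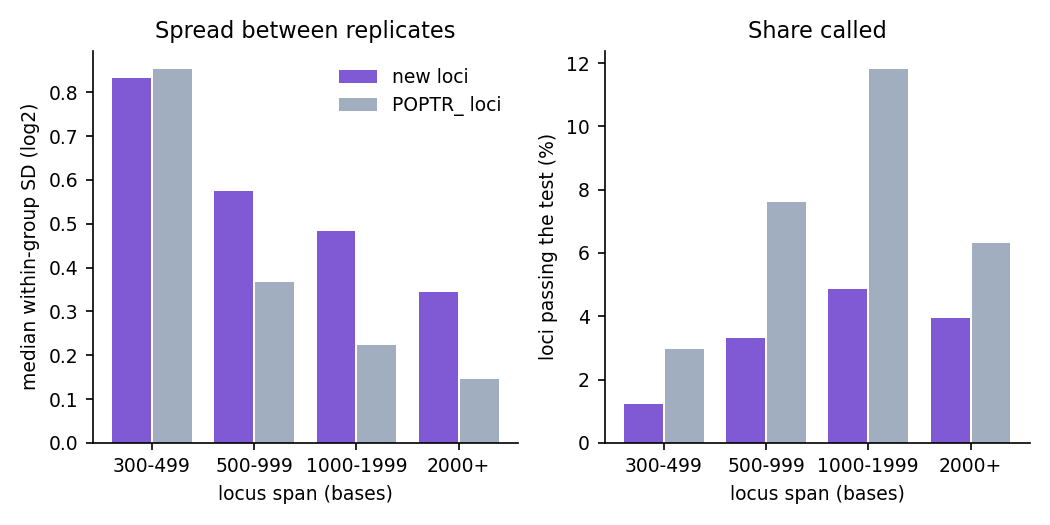
Median within-group SD on the log2(FPKM + 1) scale (left) and percentage of loci called at an adjusted p under 0.05 (right) by locus span, for new loci (purple) and reference loci (grey). In the shortest class the SDs are 0.83 and 0.85, and in the longer classes the new loci have the wider spread and the smaller share called.

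On the log2(FPKM + 1) scale the largest rise was at XLOC_001876, a single-transcript locus of 947 bases on the plus strand of chromosome 1 (40731804 to 40732750). It had 1.76, 2.03 and 2.26 FPKM in control replicates 1, 2 and 3 and 10.7, 9.18 and 9.05 FPKM in the air-dried replicates. The groups were far apart and each was tight, with means of 2.02 ± 0.25 and 9.65 ± 0.92 FPKM (SD, n = 3 each), a 4.78-fold rise (log2 fold change 1.82 with SE 0.11, limma adjusted p = 0.00202). It was the only new locus still called under all 18 alternatives run, with adjusted p from 0.000427 to 0.0441. It lay 306 bases upstream of POPTR_0001s41080, on the same strand, a locus at 811 to 2302 FPKM that did not pass (log2 fold change 0.41, SE 0.50, limma adjusted p = 0.676).

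A second rise next to a gene was at XLOC_031331, 1082 bases on the minus strand of chromosome 6 (1056792 to 1057873). It was near silent in control leaves, at 0, 0.321 and 0.199 FPKM, and stood at 1.49, 2.81 and 2.57 FPKM in air-dried leaves. Its ratio of means, 13.2, was the widest of the 6 rises but rests on control values near 0. The value of 0 came from control replicate 1, which listed 112 new loci at 0. With a control mean of 0.173 FPKM, XLOC_031331 passed the minimum of 1 FPKM through its air-dried values alone. Its log2 fold change was 1.47 (SE 0.23, limma adjusted p = 0.0241). With pseudocounts of 0.5 and 0.1 FPKM its log2 fold change was 2.05 and 3.31, above the 2.01 and 2.21 of XLOC_001876. It lay 879 bases upstream of POPTR_0006s01720 on the same strand. That locus rose too, from 16.2, 17.9 and 17.9 FPKM to 29.9, 27.7 and 30.4 FPKM (1.70-fold, limma adjusted p = 0.00688). The call at XLOC_031331 ended without control replicate 2 or 3 (limma adjusted p = 0.0705 and 0.0725), and without air-dried replicate 2 or 3 its mean was under 1 FPKM. It also ended with a pseudocount of 0.1 FPKM and with the replicate number as a block.

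XLOC_011499, 922 bases without a strand on chromosome 13 (12998395 to 12999316), had 7.51, 7.80 and 5.04 FPKM in control and 16.0, 13.2 and 15.4 FPKM in air-dried replicates 1 to 3. It rose 2.19-fold (log2 fold change 1.04 with SE 0.17, limma adjusted p = 0.0293). It ended 86 bases upstream of POPTR_0013s12370.r1, which rose by a similar factor, from 12.7, 10.3 and 10.2 FPKM to 24.6, 21.8 and 23.8 FPKM (2.12-fold, limma adjusted p = 0.00775). At this distance the reads of a locus without a strand and of its neighbour's unannotated start cannot be told apart. The call at XLOC_011499 ended without control replicate 2 (limma adjusted p = 0.0669) and without any 1 air-dried replicate (0.0993 to 0.128). Of the nearest reference loci of the 17 called new loci, these 2 were the only ones called in the same direction.

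The other 3 rises lay inside or away from reference loci. XLOC_029911, 389 bases on chromosome 5 (21729644 to 21730032), rose from 18.3, 19.5 and 25.4 FPKM to 47.9, 42.4 and 46.3 FPKM (2.16-fold, log2 fold change 1.09 with SE 0.14, limma adjusted p = 0.0125). It lay inside the span of POPTR_0005s22830.r1, which stayed between 2169 and 2393 FPKM in all 6 samples. XLOC_032592, 647 bases on chromosome 6 (4257435 to 4258081), rose from 6.72, 5.27 and 4.87 FPKM to 11.4, 9.69 and 12.6 FPKM (2.00-fold, log2 fold change 0.89 with SE 0.15, limma adjusted p = 0.0296), 6701 bases from a reference locus. XLOC_024987, 1168 bases on chromosome 3 (13172274 to 13173441), rose from 4.59, 4.82 and 4.27 FPKM to 8.44, 7.57 and 8.30 FPKM (1.78-fold, log2 fold change 0.71 with SE 0.085, limma adjusted p = 0.0112). It lay inside 2 reference loci, neither of which passed. POPTR_0003s13020.r1, which holds an annotated transcript, ran from 66.9 to 98.5 FPKM over the 6 samples (log2 fold change 0.045, limma adjusted p = 0.904). POPTR_0003s12670.r1, which holds none, was at 11.9 to 40.5 FPKM in control and 6.19 to 8.40 FPKM in air-dried leaves (limma adjusted p = 0.180). All 3 new loci were without a strand, and in each the groups did not overlap. Each call ended without any 1 air-dried replicate (limma adjusted p = 0.0582 to 0.122). Without control replicate 2 the calls at XLOC_029911 and XLOC_032592 ended (0.0600 and 0.107), and without control replicate 3 that at XLOC_032592 (0.0816).

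The largest fall on the log2 scale was at XLOC_038954, 410 bases without a strand on scaffold_21 (522760 to 523169). Its values were 51.0, 52.3 and 30.7 FPKM in control and 12.9, 8.82 and 10.2 FPKM in air-dried replicates 1 to 3. The means were 44.7 ± 12.2 and 10.6 ± 2.09 FPKM (SD, n = 3 each), 4.20 times lower in air-dried leaves (log2 fold change -1.95, SE 0.25, limma adjusted p = 0.0136). It lay inside XLOC_038894, a locus with 2 annotated transcripts that ran from 39.4 to 60.9 FPKM and did not pass (limma adjusted p = 0.383). The nearest reference locus, 7938 bases away, was listed at 0 in every sample. The call ended without control replicate 2 (limma adjusted p = 0.0584) and without air-dried replicate 2 or 3 (0.0759 and 0.0777).

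Several falls were at long or multi-transcript loci. XLOC_012002 has 2 transcripts over 15061 bases (chromosome 14, plus strand, 7399178 to 7414238) and went from 6.40, 5.45 and 4.53 FPKM to 1.30, 1.61 and 1.52 FPKM, 3.70 times lower (log2 fold change -1.37, SE 0.14, limma adjusted p = 0.00752). It overlapped 3 reference loci, none of which passed. POPTR_0014s09880.r1 went from 6.49, 8.01 and 11.7 FPKM to 3.86, 4.06 and 4.70 FPKM (log2 fold change -0.87, limma adjusted p = 0.0778). POPTR_0014s09890.r1 went from 1.77, 1.84 and 2.67 FPKM to 1.02, 1.06 and 1.47 FPKM (log2 fold change -0.50, limma adjusted p = 0.178). At POPTR_0014s09890.r2, which holds no annotated transcript, the groups overlapped (log2 fold change -0.32, limma adjusted p = 0.880). XLOC_012066, 1855 bases with 2 transcripts on chromosome 14 (8442558 to 8444412), fell from 15.1, 13.9 and 12.7 FPKM to 6.25, 4.58 and 5.43 FPKM (log2 fold change -1.22 with SE 0.13, limma adjusted p = 0.00742). XLOC_036166 has 4 transcripts over 3066 bases (chromosome 8, minus strand, 14221754 to 14224819) and fell from 16.5, 13.8 and 14.9 FPKM to 8.52, 8.17 and 8.63 FPKM (log2 fold change -0.76 with SE 0.085, limma adjusted p = 0.00904). It lay 13193 bases from the nearest reference locus, which was level at 318 to 344 FPKM. In all 3 new loci the lowest control value was above the highest air-dried value. The calls at XLOC_012002 and XLOC_012066 ended without air-dried replicate 3 (limma adjusted p = 0.0516 and 0.0519), and that at XLOC_036166 without any 1 air-dried replicate (0.0510 to 0.0641).

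The longest new locus also fell. XLOC_004252 spans 107380 bases on the minus strand of chromosome 1 (43941407 to 44048786), with 2 transcripts, and overlaps 7 other loci, 5 of them reference loci. It is one of the 2 new loci that overlap the span of an annotated transcript. The annotated transcripts it overlaps include that of POPTR_0001s43710, a locus under 1 FPKM in every sample. They also include those of POPTR_0001s43680, at 0 in every sample, and POPTR_0001s43720, at 0 to 3.76 FPKM. XLOC_004252 went from 21.0, 15.7 and 17.8 FPKM to 7.51, 8.25 and 10.9 FPKM (log2 fold change -0.96 with SE 0.17, limma adjusted p = 0.0343). Another of the 5 reference loci, POPTR_0001s43680.r1, holds no annotated transcript. It was listed at 121356 FPKM in control replicate 1 and at 0 in the other 5 samples. Leaving out any 1 library ended the call at XLOC_004252 (limma adjusted p = 0.0551 to 0.150, and 0.0589 without control replicate 1). The next longest new locus after XLOC_012002, XLOC_029223, spans 13878 bases on the minus strand of chromosome 5 (11874563 to 11888440). It had 76.4, 52.0 and 44.6 FPKM in control and 32.8, 24.4 and 21.9 FPKM in air-dried leaves, with no overlap, but missed the threshold (log2 fold change -1.08 with SE 0.25, limma adjusted p = 0.0674). XLOC_029890, 415 bases without a strand, lies inside it (11875284 to 11875698) and was called, falling from 64.6, 54.2 and 43.0 FPKM to 26.6, 21.1 and 15.4 FPKM (log2 fold change -1.33 with SE 0.24, limma adjusted p = 0.0365). Leaving out any 1 library ended this call (limma adjusted p = 0.0589 to 0.147). The loci lie on the same stretch of the genome and are not independent.

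The most abundant new locus that passed was XLOC_036094, 1461 bases on the minus strand of chromosome 8 (13027837 to 13029297). It fell from 147, 150 and 136 FPKM to 67.4, 76.8 and 82.7 FPKM, with means of 144 ± 7.34 and 75.6 ± 7.68 FPKM (SD, n = 3 each; limma log2 fold change -0.92, SE 0.097, adjusted p = 0.00782). It overlapped POPTR_0008s19040.r1 on the same strand, which had 462 to 707 FPKM in control and 372 to 460 FPKM in air-dried leaves and did not pass (limma log2 fold change -0.45, adjusted p = 0.246). Without air-dried replicate 2 the call at XLOC_036094 ended (limma adjusted p = 0.0582). It also ended under quantile normalization and with the replicate number as a block (limma adjusted p = 0.0996 and 0.0645). The 4 remaining falls had limma adjusted p-values close to the threshold. XLOC_004511 on chromosome 1 (27269152 to 27269920) went from 5.34, 3.87 and 2.81 FPKM to 1.23, 1.09 and 1.33 FPKM. The reference locus nearest to it, POPTR_0001s28510 at 7099 bases, moved in the opposite direction, from 28.9, 33.7 and 33.3 FPKM to 99.5, 99.0 and 102.8 FPKM (limma adjusted p = 0.000934). XLOC_008984 on chromosome 12 (8414189 to 8415371) went from 2.87, 2.36 and 1.52 FPKM to 0.633, 0.362 and 0.384 FPKM. It passed the minimum of 1 FPKM through its control values alone. XLOC_036308 on chromosome 8 (7544531 to 7545326) went from 5.73, 6.78 and 4.14 FPKM to 1.75, 2.21 and 2.67 FPKM. XLOC_039923 on scaffold_501 (38640 to 39218) went from 18.3, 23.6 and 15.9 FPKM to 10.3, 5.88 and 6.28 FPKM. The limma adjusted p-values of these 4 were 0.0381, 0.0381, 0.0456 and 0.0425. Each call ended without control replicate 2 (0.121 to 0.129), without air-dried replicate 2 (0.159 to 0.168) and without air-dried replicate 3 (0.116 to 0.163). Without air-dried replicate 1, XLOC_039923 was still called (0.0426) and the others were not (0.103 to 0.142).

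**Figure D5:**
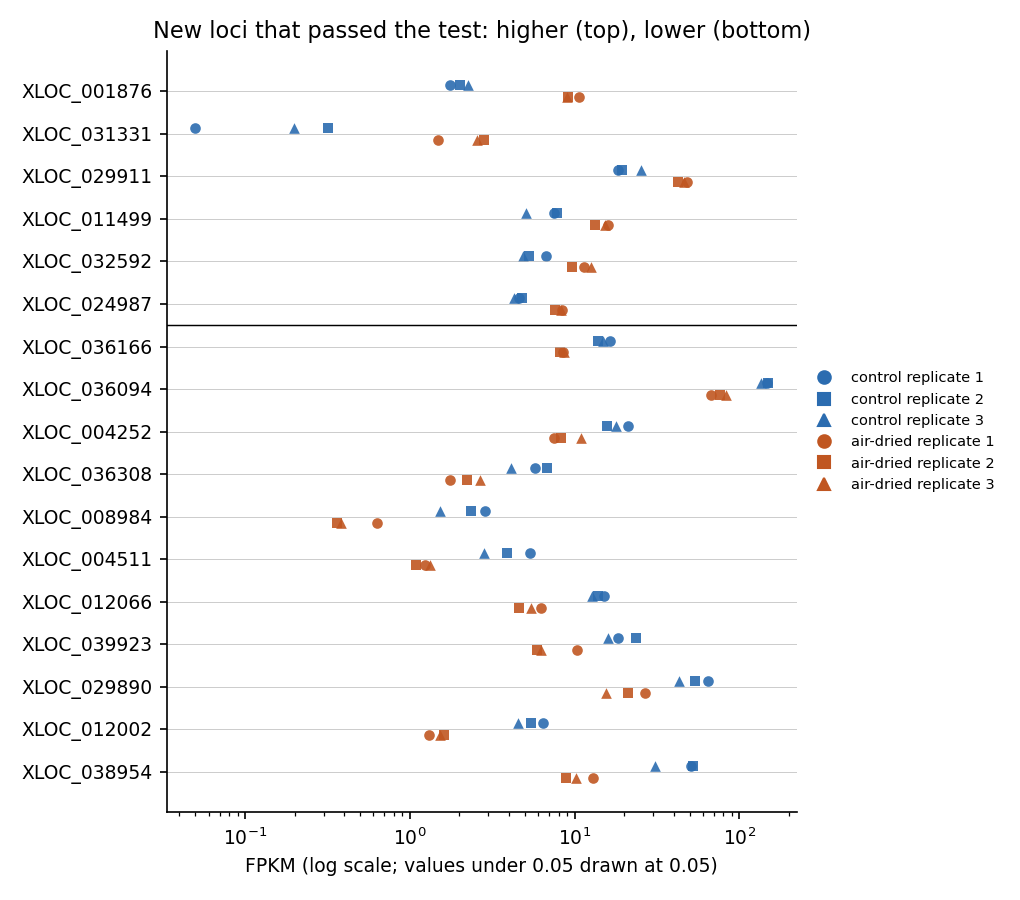
FPKM (x axis, log scale) in each sample for the 17 new loci that passed the test, with the 6 rises above the line and the 11 falls below, control in blue, air-dried in orange and the replicate by marker shape. In each locus the groups do not overlap, and XLOC_001876 has the widest gap relative to the spread of its groups.

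Which loci were called depended on single libraries, over all loci as among the new loci. Without control replicate 1, 1683 of 22664 loci were called in all. Of the 580 new loci tested in that fit, 13 rose and 8 fell, and 12 of the 17 calls were kept. The 5 lost were XLOC_004252, XLOC_008984, XLOC_029890, XLOC_036308 and XLOC_039923, with limma adjusted p-values of 0.0589, 0.0547, 0.0685, 0.0853 and 0.0767. Without control replicates 2 and 3, 6 and 12 of the 17 calls were kept. Without air-dried replicates 1, 2 and 3, 7, 3 and 2 were kept. The fit over all loci lost calls in the same settings, from 1548 to 636 and 890 without control replicates 2 and 3. Without air-dried replicates 1, 2 and 3 it came to 523, 373 and 387 calls. Of the 1548 calls over all loci, 1248, 614 and 792 were kept without control replicates 1, 2 and 3. Without air-dried replicates 1, 2 and 3, 506, 371 and 383 of them were kept. When the fit carried a term for the 3 libraries that were highest at the 150-base loci, 1263 of 22835 loci were called in all. Of the 604 new loci, 5 rose and 10 fell, and 13 of the 17 calls were kept. The 4 lost were XLOC_004252, XLOC_004511, XLOC_032592 and XLOC_036308. With the replicate number as a block, only 2 of the 17 calls were kept, those at XLOC_001876 and XLOC_029890. Over all loci, the library term kept 1072 of the 1548 calls and the block kept 274.

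For 14 of the 17 called new loci the nearest reference locus averaged 1 FPKM or more and was tested. Of these 14, 3 were called (21.4%, against 6.78% over all loci), 2 in the same direction as the new locus and 1 in the opposite direction. The log2 fold changes had the same sign in 9 of the 14, among them POPTR_0001s43680.r1, which was above 0 in control replicate 1 alone. Over all new loci, 354 different nearest reference loci were tested, of which 9 rose and 7 fell (4.52%, against 6.78% over all loci). The log2 fold changes of a new locus and its nearest reference locus were only loosely related. Across 161 pairs under 1000 bases apart Spearman's rho was 0.22, and 0.37 in 154 pairs without control replicate 1. From 1000 to under 5000 bases it was 0.13 (114 pairs) and 0.25 without that library, and at 5000 bases or more 0.023 (57 pairs) and -0.085. Overlapping pairs gave 0.044 (62 pairs) and -0.0057. Pairs of neighbouring reference loci gave 0.18 where they overlapped (1446 pairs), 0.049 under 1000 bases apart (3152 pairs), 0.030 from 1000 to under 5000 bases (5025 pairs) and 0.067 beyond (2227 pairs). Their values were thus above those of the new loci in the overlapping and the farthest pairs and below them in between. These are descriptions across loci measured in the same libraries, some of which share a neighbour, and loci are not independent replicates.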

How the data were processed

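Leaf poly(A) libraries were made with the TruSeq RNA kit and sequenced in read pairs, per the labels' protocols. The authors deposited FPKM per transcript, per the file headers. FastQC, TopHat and Cufflinks are named in the submitters' processing notes, without versions, while for build and annotation nothing is given in the sources used here. Coordinates are those of the deposited tables, and no sequence is printed because no genome of their build was used here.

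FPKM was summed per locus, and loci were tested with limma 3.58 in R 4.3 on log2(FPKM + 1), letting the variance follow the mean, without the replicate number as a block. Exact zeros can be failed estimates. Distance is the gap in bases between spans, 0 where they overlap. Named are all called new loci, the 8 highest by median, the 3 longest, the 3 farthest from a reference locus and the nearest reference loci of called ones. Any other locus named was chosen after its values were seen. The loci and lists were chosen with earlier results of these data known. Alternatives covered pseudocount, filter, scaling, variance trend, sample weights, replicate number, locus span, neighbour definition and each sample left out.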

Additional observations from a re-analysis of the deposited data

How the results depend on the processing

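Counts of new loci that rose (6) and fell (11) and of all loci called (1548) stayed within 1.5 times under both other pseudocounts, both other filters, size factors, quantile normalization, no variance trend, loci of 300 bases or more alone, and the library term. Sample weights gave 19, 30 and 3371. Without control replicate 1 and with loci of 300 bases or more alone, 1995 of 21902 loci were called in all. Of the 580 new loci in that fit, 15 rose and 13 fell. The cause of these shifts was not tested. Leaving out 1 sample gave 1 to 13 rises, 2 to 10 falls and 373 to 1683 calls over all loci. With the replicate number as a block, 1 new locus rose, 2 fell and 281 loci were called in all, and 2 of the 17 calls were kept. Deviations of same-numbered samples had correlations across loci of 0.025, -0.065 and 0.050. Between samples with unlike numbers they ran from -0.141 to 0.137, the highest for control replicate 3 with air-dried replicate 2. Not every sample correlated best with its own number. Deviations from the mean of a group this small depend on each other, so these values cannot decide whether the numbers pair the samples. The 17 called loci kept their direction under all 18 alternatives in which they were tested. They kept the call in 42 of 100 fits that left out a sample and in 173 of 199 others. With neighbours taken as single annotated transcripts, an alternative added after the data were seen along with the library term and the fit to loci of 300 bases or more without control replicate 1, overlaps went from 70 to 2. Depth is unknown, so the level at which a change was detectable cannot be given.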

Other observations

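Some new loci varied less within groups than the median reference locus, whose SD was 0.17 on the log2(FPKM + 1) scale. XLOC_032742, 2568 bases with a single transcript on the plus strand of chromosome 7 (1048153 to 1050720), had 232, 232 and 216 FPKM in control and 263, 254 and 220 FPKM in air-dried replicates 1 to 3. Its SD within groups was 0.11, and it lay 62 bases from the nearest reference locus. XLOC_007042, 2267 bases without a strand on chromosome 10, stayed between 10.8 and 12.6 FPKM in all 6 samples and lay 8112 bases from a reference locus. Its SD within groups was 0.091. Both were chosen after their values were seen, for this small spread.

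A long locus was also high in a single library. XLOC_035129, 12384 bases on the plus strand of chromosome 8 (16197458 to 16209841), was at 1969 FPKM in control replicate 3, at 0.337 FPKM in air-dried replicate 3 and at 0 in the other 4 samples. It was chosen after its values were seen.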
